A study of Mus musculus with 4 samples.

Results

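WNT signalling was described through 49 genes, chosen by name as WNT ligands, their receptors and co-receptors, secreted inhibitors, the R-spondin system and intracellular components, out of 35580 genes measured. The cells came from the stromal vascular fraction (what remains of digested fat once adipocytes are removed) of subcutaneous adipose tissue of C57BL/6 mice, and RNA sequencing compared those positive for Mmp3 with those negative for it. All 4 libraries were labelled wild type, with 2 per group, numbered as sets 1 and 2. Whether each is its own animal is not in the labels, and p-values therefore measure only how these samples vary, a spread that may be technical. How Mmp3 was used to separate the cells was given only as a reagent code, and the sources used here do not give the age of the mice. RNA was extracted with a kit for formalin-fixed, paraffin-embedded material.

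WNT proteins are secreted lipid-modified signals that bind Frizzled receptors together with the co-receptors LRP5 or LRP6, or with ROR receptors in branches that do not need beta-catenin. In the canonical branch, binding stops a complex of AXIN, APC and kinases from marking beta-catenin for breakdown, and beta-catenin then acts with TCF/LEF factors on target genes, several of which (Axin2, Nkd1, Znrf3, Rnf43) dampen the pathway. In fat, WNT signals acting through beta-catenin are known to restrain the differentiation of progenitors into adipocytes.

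The libraries held 17693755 to 20286221 estimated counts. Mmp3, which defined the groups, stood at 106 and 131 CPM in the Mmp3-negative and 4161 and 3409 CPM in the Mmp3-positive libraries (replicates 1 and 2). CPM are counts scaled to a common library size, here with TMM factors. Of the 49 WNT genes, 45 had at least 1 count, 44 reached 10 counts in a library and 41 passed the count filter and were tested. In the fit of all 14185 tested genes, 1 was called higher and 2 lower in Mmp3-positive cells. All 12 stromal markers, among them Pdgfra and Col1a1, had counts. Among genes that reached 10 counts in a library, 28% had 0 counts in a library whose partner of the same group held at least 10, and among the WNT genes this held for 9 of 44 (20.5%). For these genes a level rests on 1 library of a group.

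None of the 41 tested WNT genes passed the threshold of an adjusted p of 0.05, higher or lower (0 of 41, edgeR quasi-likelihood test with Benjamini-Hochberg adjustment; lowest adjusted p = 0.480). In the same test 0.0211% of all genes passed, 0.00705% higher (Mmp3 alone) and 0.0141% lower. At an unadjusted p under 0.05 there were 7 WNT genes (17.1%), against 8.87% of all genes. Porcn, Lrp5, Rspo3 and Rnf43 had higher levels in Mmp3-positive cells (5.62% of all genes), and Nkd1, Tcf7l1 and Dkk3 lower ones (3.25% of all genes). In 4 of the 7 (Porcn, Rspo3, Rnf43 and Dkk3) all counts came from 1 group, and these passed the count filter only through that group. The DESeq2 Wald test called 5 WNT genes (12.2%), Porcn and Rspo3 higher and Nkd1, Tcf7l1 and Dkk3 lower, against 9.64% of all genes (5.46% higher and 4.18% lower). Porcn, Rspo3 and Dkk3 were among the genes with a group at 0. Leaving such genes out, 3 of 37 WNT genes (8.11%) had an unadjusted p under 0.05 against 5.05% of all genes, and DESeq2 called 2 of 37 (5.41%) against 6.13%. In 17 of 41 genes (41.5%) the 2 groups did not overlap, 7 higher (17.1%) and 10 lower (24.4%) in Mmp3-positive cells, against 39.8% of all genes (22.5% higher and 17.3% lower). The median log2 fold change, Mmp3-positive over Mmp3-negative, was -0.15 over the 41 genes and 0.02 over all tested genes. Setting the 4 genes with a group at 0 to their lower bounds left that median at -0.15. It could not move, since each bound lies on the same side of the median as before. Leaving out genes with a group at 0, the median was -0.22 over 37 WNT genes and 0.0024 over 13614 of all tested genes.

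The pair of naked cuticle genes, Nkd1 and Nkd2, whose proteins bind Dishevelled inside the cell and dampen WNT signals, stood in opposite order. Nkd1 stood at 22.4 and 35.8 CPM in the Mmp3-negative and at 4.47 and 3.77 CPM in the Mmp3-positive libraries. The groups did not overlap, and the lowest Mmp3-negative library lay far above both Mmp3-positive ones. Its mean was 29.1 ± 9.45 against 4.12 ± 0.499 CPM (SD, n = 2 each), 7.07-fold lower in Mmp3-positive cells (log2 fold change -2.82, SE 0.80, edgeR adjusted p = 0.480, DESeq2 adjusted p = 2.22e-05). Nkd2 stood at 19.4 and 17.1 CPM in the Mmp3-negative and at 37.7 and 32.9 CPM in the Mmp3-positive libraries. Here both Mmp3-positive libraries were the higher ones. The log2 fold change was 0.95 (SE 0.50, edgeR adjusted p = 0.728). In TPM, which correct for transcript length, Nkd2 stood at 7.85 and 72.9 against 35.6 and 63.1 and its groups overlapped, while those of Nkd1 stayed apart, at 7.31 and 17.4 against 4.32 and 1.52 TPM. The ratio of Nkd1 to Nkd2 CPM within a library was 1.16 and 2.10 in the Mmp3-negative and 0.119 and 0.115 in the Mmp3-positive libraries. With 2 against 2 libraries an exact two-sided permutation test of this ratio cannot go below 0.333. Nkd1 lies on chromosome 8 of GRCm38 from 88521354 to 88594884 and Nkd2 on chromosome 13 from 73818534 to 73847631 (GENCODE M21).

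The 250 bases before the transcription start are shown for Nkd1 and Nkd2, whose groups lay apart in opposite directions, and for the ligand Wnt11 and the receptor Ror1, whose windows hold a TCF/LEF core motif. The motif searched was CTTTGA or, on the other strand, TCAAAG, and its matches are in capitals. Sequences are from RefSeq (GRCm38.p6), 5′ to 3′ on the gene's strand. The Nkd1 window precedes the RefSeq start, which lies inside the GENCODE gene span and 20 bases from the start of an annotated transcript, and not the 5′ end of that span. None of the 4 windows overlaps an annotated exon.
Nkd1, chr8:88527383-88527632, plus strand: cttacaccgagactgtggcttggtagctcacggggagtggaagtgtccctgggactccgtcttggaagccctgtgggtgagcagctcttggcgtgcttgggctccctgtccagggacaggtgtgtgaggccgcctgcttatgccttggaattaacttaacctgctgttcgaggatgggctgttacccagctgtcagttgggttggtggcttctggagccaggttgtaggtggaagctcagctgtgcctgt
Nkd2, chr13:73847632-73847881, minus strand: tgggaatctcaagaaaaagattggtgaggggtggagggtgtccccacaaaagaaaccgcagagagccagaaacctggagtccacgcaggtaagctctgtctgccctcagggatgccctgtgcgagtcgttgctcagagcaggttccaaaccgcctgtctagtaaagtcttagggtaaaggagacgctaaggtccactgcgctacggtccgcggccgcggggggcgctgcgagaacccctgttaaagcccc
Wnt11, chr7:98834862-98835111, plus strand: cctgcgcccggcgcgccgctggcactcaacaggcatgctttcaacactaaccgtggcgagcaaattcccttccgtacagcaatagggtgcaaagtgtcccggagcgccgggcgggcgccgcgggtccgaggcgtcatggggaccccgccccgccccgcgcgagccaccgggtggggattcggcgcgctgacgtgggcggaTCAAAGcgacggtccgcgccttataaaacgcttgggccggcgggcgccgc
Ror1, chr4:100095541-100095790, plus strand: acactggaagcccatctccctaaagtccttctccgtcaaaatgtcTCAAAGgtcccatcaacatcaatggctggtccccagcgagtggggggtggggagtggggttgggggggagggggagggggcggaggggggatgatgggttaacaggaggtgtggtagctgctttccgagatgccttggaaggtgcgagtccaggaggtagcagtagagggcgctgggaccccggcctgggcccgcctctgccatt
The motif was in the window of at least 1 start in 6 of 32 WNT genes found in the promoter table (18.8%), against 15.8% of all 27025 genes there. The 6 genes were Frzb, Lef1, Ror1, Fzd1, Wnt5b and Wnt11. The Lef1 window with the motif precedes a RefSeq start 42438 bases from the nearest GENCODE start of that gene, and its other windows hold none. Wnt5b and Wnt11 also held the motif in only 1 of several windows. A match is a description of letters and not a binding site.

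**Figure D1:**
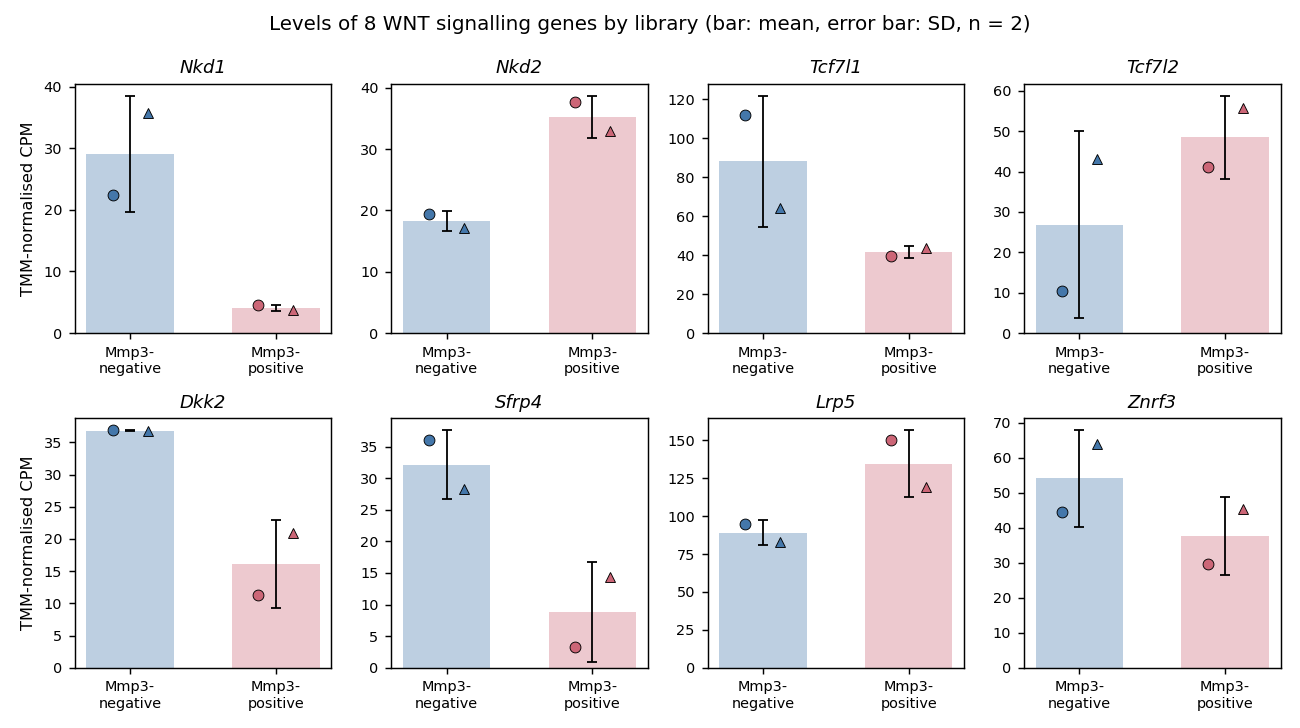
TMM-normalised CPM (vertical axis, from 0) of 8 WNT signalling genes, with bars for the mean, error bars for the SD (n = 2) and a circle or triangle for replicate 1 or 2. Nkd1, Tcf7l1, Dkk2 and Sfrp4 were lower and Nkd2 and Lrp5 higher in both Mmp3-positive libraries than in either Mmp3-negative one, while the groups overlapped for Tcf7l2 and Znrf3.

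The TCF/LEF factors, through which beta-catenin acts on DNA, were represented by Tcf7l1 and Tcf7l2. Tcf7l1, which acts mainly as a repressor in the absence of beta-catenin, stood at 112 and 64.3 CPM in the Mmp3-negative and at 39.4 and 43.7 CPM in the Mmp3-positive libraries. Both Mmp3-positive libraries were below both Mmp3-negative ones. The mean was 88.1 ± 33.7 against 41.6 ± 3.09 CPM (log2 fold change -1.08, SE 0.36, edgeR adjusted p = 0.480, DESeq2 adjusted p = 0.0236). Dropping Mmp3-negative replicate 2 moved this to -1.43 (edgeR adjusted p = 0.0471, where 0.709% of all genes were called lower), and dropping Mmp3-negative replicate 1 to -0.63 (edgeR adjusted p = 0.433). In both fits the lone Mmp3-negative library is assumed to vary like the Mmp3-positive ones. Tcf7l2, the TCF factor most studied in metabolism, stood at 10.5 and 43.2 CPM in the Mmp3-negative and at 41.2 and 55.8 CPM in the Mmp3-positive libraries. The second Mmp3-negative library lay between the Mmp3-positive ones, so the groups overlapped, and the log2 fold change was 0.85 (SE 0.70, edgeR adjusted p = 0.932). The ratio of Tcf7l1 to Tcf7l2 CPM was 10.7 and 1.49 in the Mmp3-negative and 0.957 and 0.784 in the Mmp3-positive libraries. Lef1 had 0 counts in all 4 libraries, and Tcf7, a TCF factor prominent in T cells, had a single count in 1. Tcf7l1 lies on chromosome 6 from 72626378 to 72789254 and Tcf7l2 on chromosome 19 from 55741820 to 55933654.

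Levels of different genes were compared in TPM. Transcripts shorter than 300 bases held 34.7% of the TPM in Mmp3-negative replicate 1 and between 7.58% and 17.3% in the other libraries, so TPM of longer transcripts are low in that library. Sfrp2, a secreted Frizzled-related protein that binds WNT ligands, had the highest mean TPM of the WNT genes. It stood at 116 and 288 TPM in the Mmp3-negative and 132 and 216 TPM in the Mmp3-positive libraries. Its protein-coding transcript held 61.3%, 38.0%, 55.1% and 48.9% of its counts in the same order. The rest was on short processed transcripts of 600 bases and, in Mmp3-negative replicate 2, also of 382 bases. Ctnnb1, which encodes beta-catenin, followed at 166, 78.6, 230 and 123 TPM in the same order. The groups overlapped for both genes, and their order was exchanged in Mmp3-negative replicate 1 and Mmp3-positive replicate 1, so the 2 levels did not differ beyond their spread. Next by mean TPM over the 4 libraries were Axin1 (78.5), Tcf7l1 (65.3), Nkd2 (44.9), Tcf7l2 (38.1) and Lrp5 (28.8). The ligand with the highest mean, Wnt5a, came 11th, through 54.5 TPM in Mmp3-negative replicate 1 against 4.58 to 8.22 TPM in the other 3 libraries, so that its groups overlapped in TPM.

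**Figure D2:**
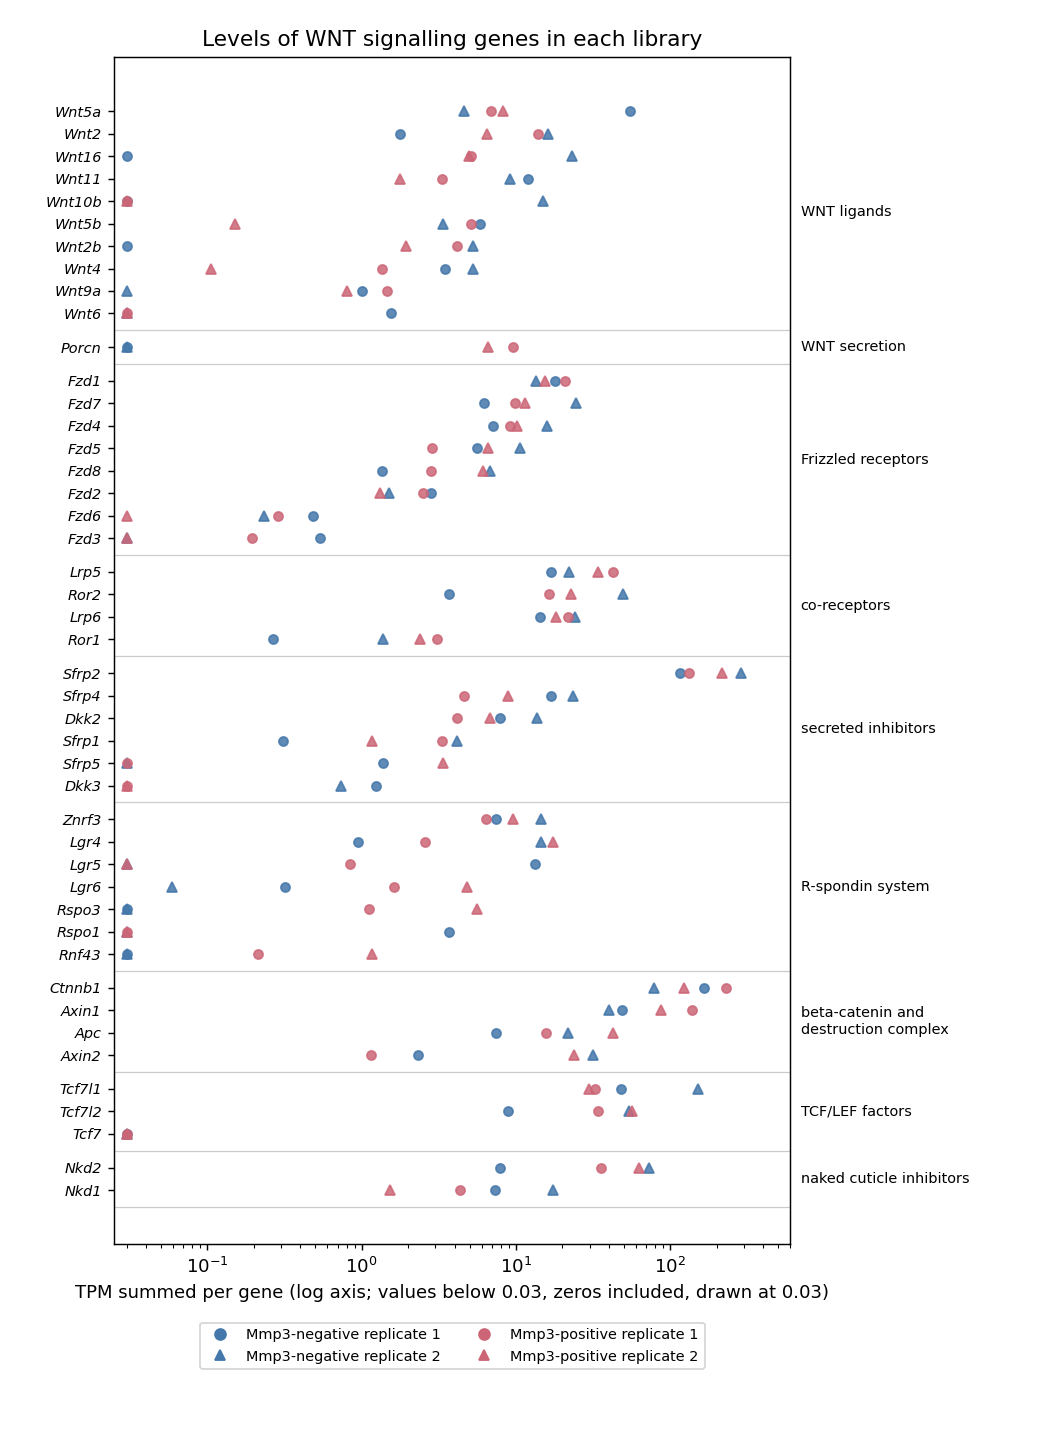
TPM summed per gene (horizontal log axis, values below 0.03 and zeros drawn at 0.03) of the 45 WNT genes with counts, by class, with blue for Mmp3-negative, red for Mmp3-positive, and circles and triangles for replicates 1 and 2. Sfrp2 and Ctnnb1 lie furthest to the right, and many ligands and R-spondin genes have a library at 0.

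Ligands were present at low levels. All 10 had counts and 8 were tested, of which 3 had log2 fold changes above and 5 below 0 (median -1.08, against 0.02 for all genes). Wnt5a, a ligand best known for signalling through ROR receptors without beta-catenin, stood at 49.4 and 22.8 CPM in the Mmp3-negative and at 13.8 and 20.0 CPM in the Mmp3-positive libraries. The groups did not overlap, but Mmp3-negative replicate 2 and Mmp3-positive replicate 2 were close, and the log2 fold change was -1.09 (SE 0.61, edgeR adjusted p = 0.779). Wnt4 stood at 18.6 and 16.2 CPM against 4.21 and 0.356 CPM, groups that did not overlap either (log2 fold change -2.93, SE 1.54, edgeR adjusted p = 0.733). In Mmp3-positive replicate 2 this level came from 7 counts. Wnt11, another ligand of the non-canonical kind, stood at 21.4 and 4.04 CPM against 4.16 and 0.764 CPM, and the groups overlapped.

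Wnt2, known as a marker of Dpp4-expressing fat progenitors, stood at 4.91 and 25.4 CPM in the Mmp3-negative and at 22.5 and 11.8 CPM in the Mmp3-positive libraries. Its Mmp3-positive values lay between the 2 Mmp3-negative ones. The groups overlapped for Wnt2b (0 and 5.77 against 10.2 and 5.29 CPM), Wnt5b (15.2 and 5.07 against 8.53 and 0.255 CPM), Wnt9a (4.21 and 0 against 3.58 and 2.19 CPM) and Wnt16 (0 and 17.4 against 3.95 and 4.33 CPM). All but Wnt5b among these had a Mmp3-negative library at 0 counts. Wnt10b, a ligand known to block adipocyte differentiation, had 270 counts in Mmp3-negative replicate 2 and 0 in the other libraries, and Wnt6 had 73 in Mmp3-negative replicate 1 and 0 elsewhere. Neither was tested with all 4 libraries. Without Mmp3-negative replicate 1, Wnt10b entered the test only through the 1 library that held it and was counted as lower, as were 0.602% of all genes, which says nothing of the groups. Summed over the 10 genes, ligands stood at 118 and 112 CPM in the Mmp3-negative and at 70.8 and 45.0 CPM in the Mmp3-positive ones. In TPM the ligand sums did not overlap either (80.2 and 81.6 against 41.2 and 24.5), with Wnt5a holding 68.0% of the first. The separation in TPM rests on Wnt5a in Mmp3-negative replicate 1, where 192 of its counts were on a processed transcript of 337 bases. That transcript had 0 counts in the other libraries. In Mmp3-negative replicate 2, Wnt16 held 23.0 and Wnt10b 14.9 TPM, and both were at 0 in Mmp3-negative replicate 1.

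Porcn encodes the enzyme that attaches the lipid WNT proteins need for secretion. It had 0 counts in both Mmp3-negative libraries and 188 and 111 counts in the Mmp3-positive ones (9.89 and 5.65 CPM). Against a floor of 3 counts per library this is at least 46.5-fold higher in Mmp3-positive cells (edgeR adjusted p = 0.480, DESeq2 adjusted p = 0.000789). The floor allows for counting error only. Of genes that reached 10 counts in a library, 17.1% had 0 in 1 Mmp3-negative library and at least 10 in the other. Porcn passed the count filter only through the group with counts, so its p-values are no support for a difference. These limits also hold for Rspo3, Rnf43, Ccn4 and Notum below. They hold for Dkk3 too, which was at 0 in the Mmp3-positive libraries, where the share was 14.7%. Wls, which carries lipid-modified WNT proteins to the cell surface and was on a second list of other pathway genes, stood at 15.2 and 11.7 CPM against 21.5 and 44.1 CPM (log2 fold change 1.29, SE 0.64, edgeR adjusted p = 0.703). Its groups did not overlap. Porcn lies on the X chromosome from 8193848 to 8206525.

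Frizzled receptors had counts for all 8 genes, and 7 of 8 log2 fold changes were below 0 (median -0.63), against 48.9% of all genes below 0 (median 0.02), with 0 past the threshold and 0 at an unadjusted p under 0.05 (edgeR; 8.87% of all genes) and 0 called by DESeq2. Fzd1 stood at 96.6 and 41.2 CPM in the Mmp3-negative and at 65.2 and 53.5 CPM in the Mmp3-positive libraries, and Fzd7 at 35.9 and 81.0 against 33.2 and 43.4 CPM. Both overlapped between groups. Fzd4, which also binds the non-WNT ligand norrin, stood at 61.6 and 78.8 against 46.4 and 57.7 CPM, and Fzd5 at 22.0 and 22.0 against 8.05 and 19.9 CPM. These were the 2 of 8 Frizzled genes whose groups lay apart in CPM, both lower in Mmp3-positive cells (log2 fold changes -0.43, SE 0.31, and -0.66, SE 0.77). Of all tested genes, 17.3% lay apart as lower and 39.8% either way. In TPM both overlapped, Fzd4 at 7.05 and 15.9 against 9.17 and 10.2 and Fzd5 at 5.62 and 10.7 against 2.86 and 6.55. Fzd4 has 1 transcript, so a length correction has little to change between its libraries. TPM of longer transcripts are low in Mmp3-negative replicate 1, so the TPM overlap of Fzd4 is no check on its CPM. The other Frizzled genes overlapped between groups in CPM. Fzd2 stood at 13.2 and 3.98 against 6.74 and 3.97 CPM, Fzd3 at 8.96 and 0 against 1.89 and 0 CPM, Fzd6 at 2.54 and 0.692 against 0.842 and 0.0509 CPM, and Fzd8 at 5.77 and 16.4 against 6.89 and 16.9 CPM. Summed over the 8 genes, Frizzled transcripts stood at 246 and 244 CPM in the Mmp3-negative and at 169 and 195 CPM in the Mmp3-positive ones. In TPM the sums overlapped (42.1 and 73.0 against 48.6 and 50.9), through the low sum of Mmp3-negative replicate 1.

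Among the co-receptors, Lrp5 stood at 94.8 and 83.1 CPM in the Mmp3-negative and at 150 and 119 CPM in the Mmp3-positive libraries. Both Mmp3-positive libraries were above both Mmp3-negative ones. The mean was 89.0 ± 8.31 against 135 ± 22.1 CPM (log2 fold change 0.60, SE 0.24, edgeR adjusted p = 0.554, DESeq2 adjusted p = 0.101). Lrp6, its close relative, stood at 113 and 113 against 92.8 and 110 CPM (log2 fold change -0.15, SE 0.22), groups that lay apart by a small margin. Ror1 and Ror2 encode receptor tyrosine kinases for WNT5A. Ror1 stood at 2.0 and 5.82 against 13.4 and 11.7 CPM, with no overlap between groups (log2 fold change 1.68, SE 1.32, edgeR adjusted p = 0.919), and Ror2 at 18.7 and 59.4 against 47.9 and 41.4 CPM, with overlap. Over the 12 receptors and co-receptors together the sums were 475 and 505 CPM against 473 and 478 CPM. Lrp5 lies on chromosome 19 from 3584828 to 3686564.

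**Figure D3:**
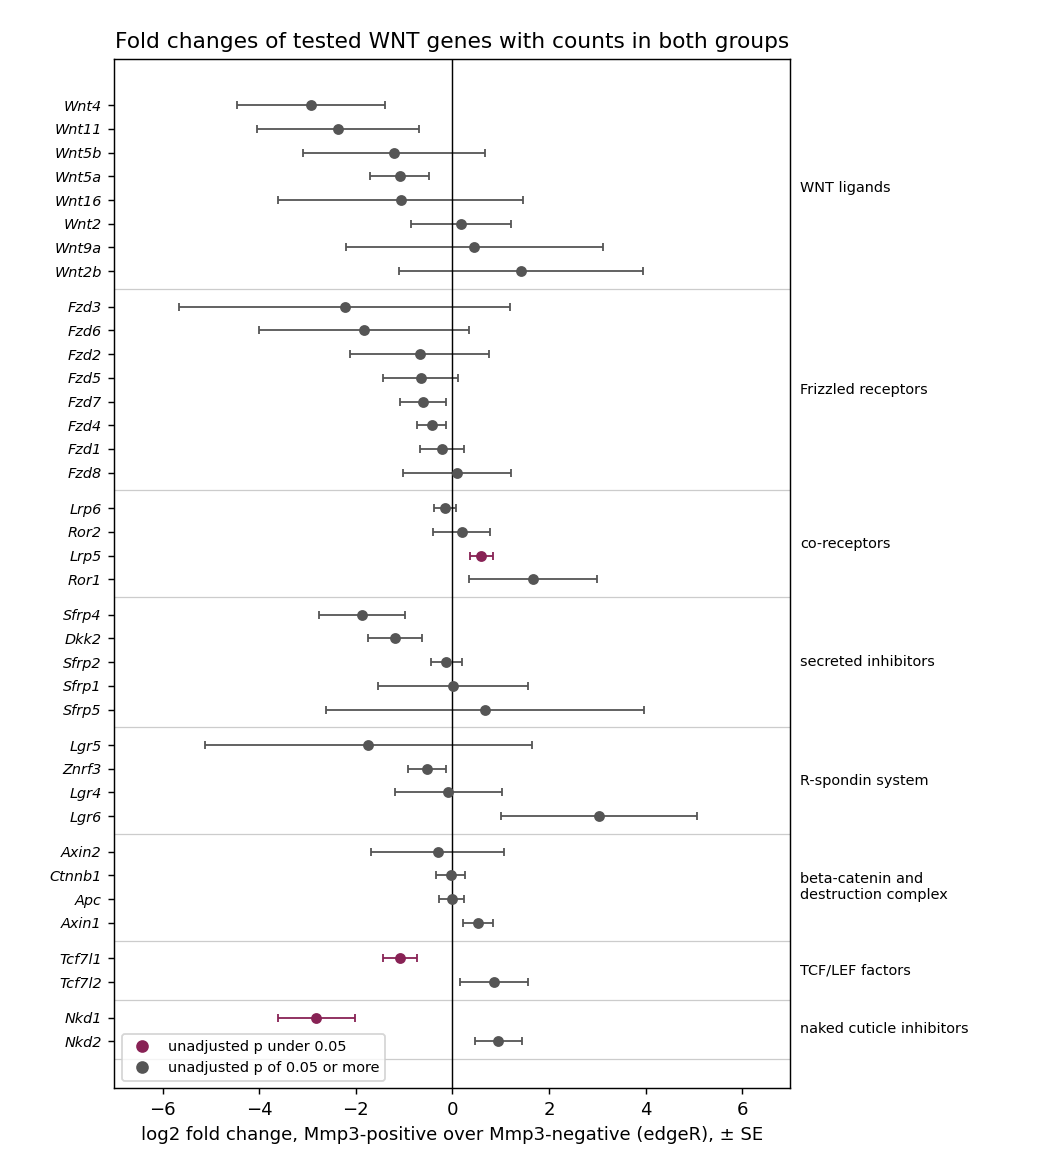
Log2 fold change, Mmp3-positive over Mmp3-negative (horizontal axis), with its SE for the 37 tested WNT genes with counts in both groups, by class, with genes at an unadjusted p under 0.05 in purple. Nkd1 (-2.82), Tcf7l1 (-1.08) and Lrp5 (0.60) are purple, no gene passed after adjustment, and the bars of low genes such as Fzd3 and Lgr5 span several log2 units.

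Secreted inhibitors were led by Sfrp2, which held 80.8% to 91.6% of the TPM of the 8 genes in each library. Dkk2, of the Dickkopf family that binds LRP5 and LRP6, stood at 36.8 and 36.7 CPM in the Mmp3-negative and at 11.3 and 20.9 CPM in the Mmp3-positive libraries. Sfrp4, a Frizzled-related protein secreted by fat, stood at 36.0 and 28.3 against 3.21 and 14.4 CPM. For both genes the Mmp3-positive libraries were the lower ones, with log2 fold changes of -1.19 (SE 0.56, edgeR adjusted p = 0.652) and -1.87 (SE 0.89, edgeR adjusted p = 0.666). Dkk3, a divergent Dickkopf member, had 97 and 31 counts in the Mmp3-negative libraries and none in Mmp3-positive cells, where it was at least 22.6-fold lower (edgeR adjusted p = 0.480, DESeq2 adjusted p = 0.0185). Sfrp1 stood at 1.73 and 13.2 against 10.8 and 4.28 CPM, so its groups overlapped, and Sfrp5 had a library at 0 in each group (3.18 and 0 against 0 and 5.09 CPM). Frzb and Wif1 had 0 counts in all 4 libraries.

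R-spondins are secreted proteins that strengthen WNT signals by binding LGR receptors and removing the ubiquitin ligases ZNRF3 and RNF43, which clear Frizzled receptors from the surface. Rspo3 had 0 counts in both Mmp3-negative and 48 and 67 counts in the Mmp3-positive libraries, at least 17.8-fold higher (edgeR adjusted p = 0.480, DESeq2 adjusted p = 0.0254). Rnf43 likewise had 0 counts in both Mmp3-negative and 11 and 59 in the Mmp3-positive libraries, at least 10.7-fold higher (edgeR adjusted p = 0.490, DESeq2 adjusted p = 0.0627). Both genes were at low levels, no more than 3.41 CPM in any library. All Rspo3 counts were on a protein-coding transcript of 3085 bases in Mmp3-positive replicate 1 and on another of 877 bases in Mmp3-positive replicate 2. Rspo1 had 28 counts in Mmp3-negative replicate 1 and 0 elsewhere, and Rspo2 had none. Among the receptors, Lgr6 stood at 1.51 and 0.288 against 3.63 and 11.3 CPM, without overlap (log2 fold change 3.04, SE 2.03, edgeR adjusted p = 0.872), Lgr4 at 6.10 and 15.6 against 9.68 and 10.8 CPM, with overlap, and Lgr5 had a library at 0 in each group (7.77 and 0 against 2.32 and 0 CPM). Znrf3, also a target of the pathway, stood at 44.3 and 63.8 against 29.6 and 45.4 CPM (log2 fold change -0.53, SE 0.40, edgeR adjusted p = 0.913).

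No gene of the core of beta-catenin turnover had groups that lay apart in CPM. Ctnnb1 stood at 229 and 130 CPM in the Mmp3-negative and at 185 and 165 CPM in the Mmp3-positive libraries (log2 fold change -0.03, SE 0.30). Apc, the scaffold of the destruction complex, stood at 85.2 and 112 against 91.9 and 102 CPM (log2 fold change -0.02, SE 0.25). In both genes the Mmp3-positive values lay between the Mmp3-negative ones. Axin1, the other scaffold, stood at 107 and 79.6 against 164 and 105 CPM, which overlap by a small margin (log2 fold change 0.53, SE 0.31, edgeR adjusted p = 0.799). In TPM Axin1 lay apart, at 48.3 and 39.8 against 139 and 86.9, higher in Mmp3-positive cells. So did the sum of the 4 genes, at 224 and 172 against 386 and 276 TPM, also higher. In the Mmp3-positive libraries 127.4 and 82.5 Axin1 counts (4.10% and 3.99%) were on a transcript of 291 bases that retains an intron. It had 0 counts in the Mmp3-negative libraries. A short transcript adds more TPM per count than a long one, and its part in the TPM difference was not tested. Axin2, a widely used readout of beta-catenin activity, stood at 7.34 and 13.7 against 2.11 and 14.9 CPM (log2 fold change -0.31, SE 1.37). Its Mmp3-positive libraries lay on either side of both Mmp3-negative ones, so no direction could be given.

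Estimated counts of a gene were spread differently over its transcripts from library to library. Of 18 WNT genes with several transcripts and at least 10 counts in every library, 6 had the same leading transcript in all 4 (Apc, Fzd5, Lrp5, Lrp6, Ror2 and Znrf3) and 12 did not. Protein-coding transcripts held all Nkd1 counts, but 46.0% and 1.23% of the Nkd2 counts in the Mmp3-negative and 92.1% and 65.5% in the Mmp3-positive libraries, and the rest of Nkd2 was assigned to transcripts that retain an intron. The share of such transcripts in Tcf7l2 was 76.9% and 68.1% in the Mmp3-negative and 43.6% and 54.6% in the Mmp3-positive libraries. For Ctnnb1, protein-coding transcripts held 11.1% and 95.4% of the counts in Mmp3-negative cells against 61.2% and 60.8%. The protein-coding share of Wnt5a was 79.0% and 98.3% against 33.9% and 49.3%. Porcn had 37.9% and 11.3% of its counts on protein-coding transcripts in the Mmp3-positive libraries, and all 59 counts of Rnf43 in Mmp3-positive replicate 2 were on transcripts that retain an intron. For these genes a difference in the sum over transcripts, the bounds for Porcn and Rnf43 included, is not a difference in protein-coding RNA alone.

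Markers of other cells of this fraction moved with the same comparison. All 12 mural markers had counts, and 8 of them were lower in both Mmp3-positive libraries, against 17.3% of all tested genes. Their sum was 752 and 675 CPM in the Mmp3-negative and 102 and 100 CPM in the Mmp3-positive libraries. The sums were 459 and 324 against 233 and 226 CPM for 12 endothelial markers, all with counts, and 269 and 175 against 33.3 and 29.4 CPM for 12 macrophage markers, of which Fcer1g was at 0 in all 4 libraries. Of the 10 tested in each of these lists, 7 were lower in both Mmp3-positive libraries, against the same 17.3%. The 12 stromal markers summed to 17898 and 25208 against 25354 and 31760 CPM. Of 8 Schwann cell markers, all with counts, the sum was 107 and 93.8 against 39.0 and 63.3 CPM, and that of 7 epithelial markers, with Krt5 and Krt18 at 0, was 20.9 and 7.32 against 0.0526 and 0 CPM. Skeletal muscle markers summed to 11.7 and 43.1 against 6.00 and 7.13 CPM, with Mylpf at 0, and the sums of mesothelial and T cell markers overlapped. Most of the T cell sum was Thy1, at 152 and 114 against 173 and 179 CPM. Of the other T cell markers, Cd2 and Cd3e had counts only in Mmp3-negative libraries. Cd3d, Lck and Trac had counts in both groups, Trac 113 and 0 against 5 and 0. The T cell markers Cd3g and Ccr7 were at 0 in all libraries. Among mesothelial markers, Msln and Upk3b had counts only in Mmp3-negative and Krt19 and Lrrn4 only in Mmp3-positive libraries, Wt1 in both and Upk1b in none. The part of these cells in the lower values of Nkd1, Tcf7l1, Dkk2, Sfrp4, Wnt4 and Wnt5a was not tested. In such bulk samples fewer cells of a type and less RNA per cell cannot be told apart.

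**Figure D4:**
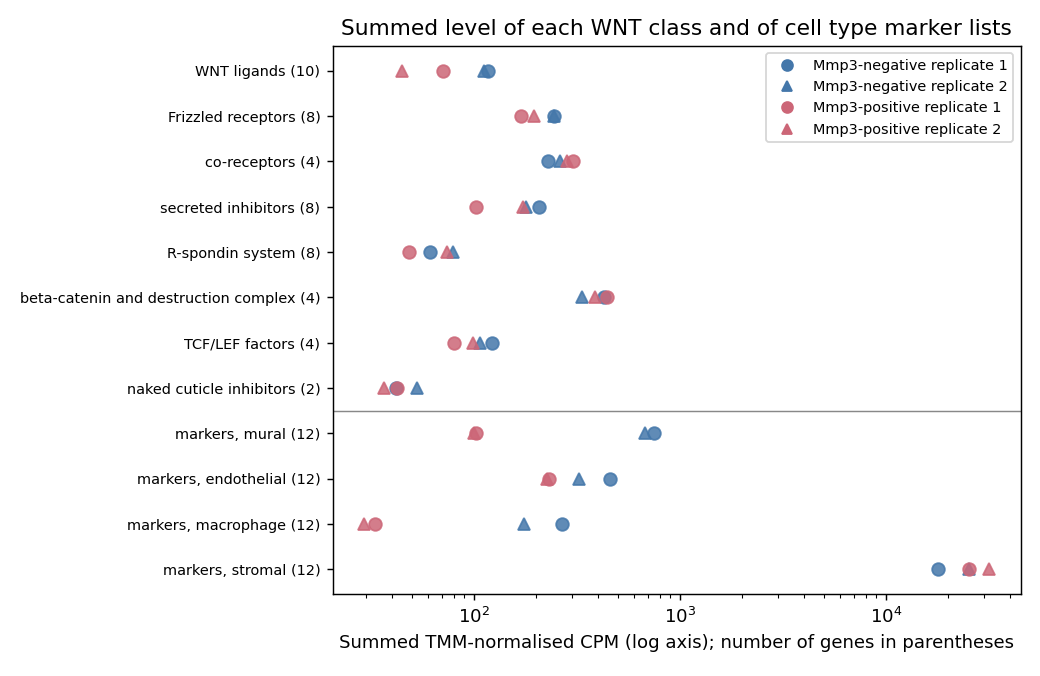
Summed TMM-normalised CPM (horizontal log axis) of each WNT class with more than 1 gene and of 4 cell type marker lists, with blue for Mmp3-negative and red for Mmp3-positive libraries and the number of genes in parentheses. Ligand, Frizzled, secreted inhibitor and TCF/LEF sums in CPM were lower and the co-receptor sum higher in both Mmp3-positive libraries. In TPM all of these overlapped but the ligand sum, which lay apart through Wnt5a in Mmp3-negative replicate 1. TPM of longer transcripts are low in that library. Mural and macrophage markers lie much further apart.

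Of 94 other genes of the pathway, 70 were tested and 0 passed higher or lower (edgeR); 10 (14.3%) had an unadjusted p under 0.05, against 8.87% of all genes, and DESeq2 called 3 higher and 7 lower, where it called 5.46% of all genes higher and 4.18% lower. Their median log2 fold change was 0.06. In 32 of them (45.7%) the groups did not overlap, against 39.8% of all genes. Among 18 other beta-catenin targets, Ccn5, a secreted matricellular protein, had a mean of 44.2 ± 10.5 CPM in the Mmp3-negative and 124 ± 39.0 CPM (SD, n = 2 each) in the Mmp3-positive libraries (log2 fold change 1.48, SE 0.34, edgeR adjusted p = 0.480). Prdm1, a transcriptional repressor, stood at 8.47 and 8.88 against 0.0526 and 0.0509 CPM (log2 fold change -7.21, SE 2.21, edgeR adjusted p = 0.480), the Mmp3-positive values being 1 count each. The target genes Myc and Ccnd2, both growth regulators, had log2 fold changes of 0.30 and 0.04, and Tcf4, an E-protein transcription factor, of 0.63. Ccn4, a relative of Ccn5, had 0 counts in both Mmp3-negative libraries and was at least 24.3-fold higher. Notum, a secreted enzyme that strips the lipid from WNT proteins, had 0 counts in both Mmp3-negative libraries and was at least 20.0-fold higher in Mmp3-positive cells (edgeR adjusted p = 0.480), at a mean of 3.34 CPM.

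In the planar polarity and calcium branch, Nfatc1, a calcineurin-regulated transcription factor, stood at 60.4 and 101 against 23.2 and 33.5 CPM (log2 fold change -1.51, SE 0.41, edgeR adjusted p = 0.480). The polarity genes Prickle1 and Celsr2 had log2 fold changes of -1.87 and -2.99, and the groups did not overlap for any of these 3. They were named for their small p, so this adds no support. Of the 16 tested genes of this list, 5 lay apart as lower and 3 as higher, against 17.3% and 22.5% of all genes. Scrib, a polarity scaffold, stood at 323 and 342 against 394 and 393 CPM (log2 fold change 0.24, SE 0.15), and Daam2 and Rhoa, which act on the cytoskeleton, had log2 fold changes of -1.84 and 0.03 with overlap. Among 29 cytoplasmic and nuclear components, Dvl1, which relays the signal from Frizzled, stood at 264 and 216 against 242 and 265 CPM, and Bcl9l and Tle3, a coactivator and a corepressor at TCF/LEF sites, had log2 fold changes of -0.52 and -0.57 without overlap of groups. Of the 28 tested there, 4 lay apart as lower and 4 as higher. Dvl2, Csnk1e and Pygo1 had log2 fold changes of -0.51, -0.56 and 5.54, none past the threshold. Of the 13 extracellular modulators, Igfbp4 stood at 98.3 and 133 against 50.1 and 72.4 CPM (log2 fold change -0.92, SE 0.31, edgeR adjusted p = 0.480). Tmem59 and Apcdd1 had log2 fold changes of 1.34 and 0.44, the receptor Ryk 0.90, and the glypicans Gpc4 and Gpc6 -0.53 and -0.70. The ligands Wnt1, Wnt3, Wnt3a, Wnt7a, Wnt7b, Wnt8a, Wnt8b and Wnt9b had 0 counts in all 4 libraries.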

How the data were processed

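The submitters' processing notes name kallisto 0.45.0 and GRCm38. The deposited tables hold, per the file headers, kallisto's estimated counts and TPM for 115270 transcripts in each library, with effective lengths. The sources used here do not give the strand setting, transcript set or trimming. Without the strand setting, reads of overlapping genes may be shared. Of these transcripts, 113580 matched GENCODE M21 by identifier and were summed into 35580 genes and rounded. The 1690 others held 0.729% to 2.08% of the counts.

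Genes were kept by filterByExpr (minimum count 10), scaled by TMM and tested two-sided with edgeR's quasi-likelihood test (version 4.0.16 in R 4.3.3), without covariates, on 2 residual degrees of freedom. Adjustment was by Benjamini-Hochberg over 14185 genes at a threshold of 0.05. Standard errors are the log2 fold change over the root of F. Also tried were size factors from DESeq2 1.42.0 and its Wald test, all genes kept without the filter, a block for the set number, each library left out, a length offset, and limma 3.58.1 on log2(TPM + 1) of the deposited TPM.

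Every WNT gene that passed the filter or reached 10 counts in a library is named. Of the other pathway genes, those past the threshold, up to 4 of smallest p and the 2 of highest mean TPM per list are named; the ligands at 0 were named after their values were seen. The WNT genes and lists were chosen with earlier results of these data known. One further marker list is not reported here.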

Additional observations from a re-analysis of the deposited data

Results flagged for a closer look

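Of the WNT genes outside the test, 3 had more counts in a library than the 3 that a count of 0 allows. Wnt10b had 270 estimated counts in Mmp3-negative replicate 2, Wnt6 had 73 and Rspo1 had 28 in Mmp3-negative replicate 1, and each had 0 in the other 3 libraries. They are listed because the comparison of groups does not use them. That limit covers counting error only.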

How the results depend on the processing

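A WNT gene that did not pass is not shown to be equal between groups, and genes under 10 counts in a library rest on few fragments. Counts are given as higher and lower. Over all genes, 1 and 2 became 4 and 23 when no filter was used, 775 and 593 under the DESeq2 Wald test, 0 lower with a length offset (1183 genes had an unadjusted p under 0.05), 0 and 0 under limma on log2(TPM + 1) (1064 such genes, 4 of them WNT genes), and 4 lower with the replicate block. Dropping single libraries moved them between 1 and 237 and between 1 and 116, with 234 and 98 without Mmp3-negative replicate 1 and 237 and 116 without Mmp3-negative replicate 2. For WNT genes, 0 and 0 became 2 and 3 under DESeq2, and 0 to 1 lower when libraries were dropped, 1 without Mmp3-negative replicate 1 (Wnt10b) and 1 without Mmp3-negative replicate 2 (Tcf7l1). For the other pathway genes, 0 and 0 became 3 and 7 under DESeq2, and 0 to 1 each way when libraries were dropped. The WNT median of -0.15 was -0.29 under the length offset, 0.19 under limma, where the median of all genes was 0.29, and -0.45 to -0.15 when libraries were dropped. The cause was not tested. The replicate block called 0 WNT genes against 0.0352% of all genes, with 3 (7.32%) at unadjusted p under 0.05 against 4.82%. The correlation of same-numbered libraries' deviations from their group means was 0.026 over 14185 genes. With 2 libraries per group the second pair mirrors the first, so this cannot show whether same-numbered libraries are paired.

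No WNT gene that turned direction passed under any setting tried. Of the other pathway genes that did, Tle3 was called lower by DESeq2 (adjusted p = 0.0457) and Daam2 without Mmp3-negative replicate 2 (edgeR adjusted p = 0.0311). With DESeq2 size factors and with the DESeq2 Wald test, Sfrp1 was -0.033 in both, Rhoa -0.017 in both, and Ccnd2 -0.0036 and -0.0037. With the replicate block, Wnt16 was 2.45, Lgr4 0.069 and Ctnnb1 0.020. With the length offset, Ror2 was -0.36, Lgr4 0.50, Ctnnb1 0.071, Apc 0.95, Ryk -0.43, Tle3 0.23, Dvl1 -0.11, Rhoa -0.0054 and Ccnd2 -0.15. With limma, Wnt16 was 0.30, Fzd1 0.19, Lrp6 0.089, Lgr4 0.55, Ctnnb1 0.55, Apc 0.97 and Tle3 0.48.

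Leaving out each library in turn gave log2 fold changes of -0.20 to 0.19 for Apc, -0.0046 to 0.77 for Apcdd1, -2.32 to 0.50 for Axin2, -0.070 to 0.14 for Ccnd2, -0.39 to 0.43 for Ctnnb1, -2.64 to 0.13 for Daam2, -0.055 to 0.23 for Dvl1, -0.70 to 0.52 for Fzd1. They were -1.30 to 0.42 for Fzd2, -9.37 to 7.15 for Fzd3, -1.08 to 0.096 for Fzd7, -0.69 to 1.04 for Fzd8, -1.29 to 0.30 for Gpc6, -0.61 to 0.75 for Lgr4, -9.17 to 7.44 for Lgr5, -0.30 to 0.44 for Rhoa. For the others they were -0.42 to 1.26 for Ror2, -0.82 to 2.12 for Sfrp1, -0.55 to 0.20 for Sfrp2, -7.87 to 8.57 for Sfrp5, -2.08 to 9.30 for Wnt16, -0.57 to 1.80 for Wnt2, -0.54 to 8.75 for Wnt9a. Another 16 WNT genes kept their direction but moved by over 1.5 times: Wnt2b (0.42 to 10.20), Wnt4 (-5.58 to -2.05), Wnt5a (-1.55 to -0.44), Wnt5b (-5.28 to -0.22), Wnt11 (-4.05 to -0.72), Fzd4 (-0.60 to -0.24), Fzd5 (-1.46 to -0.15), Fzd6 (-4.81 to -0.63), Lrp6 (-0.28 to -0.031), Ror1 (1.10 to 2.65), Sfrp4 (-3.33 to -1.16), Lgr6 (2.0 to 4.66), Znrf3 (-0.87 to -0.24), Axin1 (0.18 to 0.81), Tcf7l1 (-1.43 to -0.63), Tcf7l2 (0.16 to 2.21).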
